A study of Rattus norvegicus with 144 samples.

Results

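In each brain region, between 2055 and 2241 annotated transcripts in the brains of these rats did not spread around a single level. Nearly all of them were listed at 0 in some rats and well above 0 in the others, with a gap in between. These transcripts were chosen by their FPKM values alone, without use of the group. In each brain region, an annotated transcript of at least 700 bases was included if the sorted log2(FPKM + 0.1) of its 48 libraries had a gap of at least 2 between neighbours, at least 6 values on each side of that gap, and a median FPKM of at least 5 above it. FPKM is the number of fragments per kilobase of transcript, scaled to the number of mapped fragments. This rule found 2241 of 28306 such transcripts in the prefrontal cortex (PFC), 2055 of 28293 in the hippocampus (HIP), and 2232 of 28288 in the dorsal striatum (STR). In all, 3282 transcripts were found in at least 1 region and 1225 in all 3. The tables name transcripts by Ensembl identifier only, and no table used here pairs those identifiers with gene symbols, so no gene name, function, brain-region marker, or sequence is given.

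RNA from 144 samples was sequenced, from 12 adult male rats in each of 4 groups and from the 3 regions. F344 rats are the inbred background strain, and HIV-1Tg rats carry a non-replicating HIV-1 genome driven by the viral promoter on that background. Each strain received saline (F344_Sal and HIV_Sal) or nicotine (F344_Nic and HIV_Nic), given by repeated daily subcutaneous injection over 17 days (nicotine at 0.25 mg/ml, injected at 1 ml/kg). The tissue was sequenced in bulk, so fewer cells of a type and less RNA per cell cannot be told apart in any value given here. The p-values rest on the spread between libraries, 1 for each rat in a region. Spread between rats and spread from library and assembly cannot be told apart. Standard errors from limma also draw on the spread of all transcripts in the fit. Nothing in the labels says that equally numbered samples of different regions came from the same rat.

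Most genes give rise to several transcripts, called isoforms, through alternative promoters, splicing, and polyadenylation. Short reads seldom cover a whole isoform. Cufflinks therefore assembles the transcripts it finds in each sample and divides the fragments of a gene among them by likelihood, so an isoform can receive all fragments of a shared stretch in a sample and none in another. Assembled transcripts that match an annotated transcript at every splice junction are called exact matches here, and those that share at least 1 junction with it but differ elsewhere are called class j isoforms, after the code of the comparison program.

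Relative depth, given by the ratio of base coverage to FPKM, ranged from 2.08 to 3.56 in the PFC, 1.64 to 2.49 in the HIP, and 1.64 to 3.52 in the STR. A small group of libraries stood apart. In 10 of the 12 PFC libraries of F344_Nic rats, all except rats 4 and 8, the ratio of coverage to FPKM in transcripts of 700 to 1000 bases, divided by that in transcripts of at least 3000 bases, was 0.980 to 0.985. It was 0.918 to 0.955 in the other 38 PFC libraries, 0.935 to 0.955 in the HIP, and 0.939 to 0.953 in the STR. These 10 libraries are all of 1 group, while F344_Nic rats 4 and 8, which also received nicotine, had ratios of 0.953 and 0.945. The PFC library of HIV_Nic rat 10 also stood apart, with 55.4% of the members on their low side against a median of 46.4% over the PFC libraries and a correlation with the other libraries of 0.621 against a median of 0.734. The PFC library of HIV_Nic rat 11, at 0.692, was the next lowest. Leaving both out, 2125 of the 2241 PFC members were found again. In the HIP, HIV_Nic rat 4 had the lowest correlation, 0.7045, with the next lowest at 0.713, and 2002 of the 2055 HIP members were found again without it. The STR libraries of HIV_Sal rat 6, at 0.7043, and F344_Sal rat 10, at 0.7052, were about as low. They were not left out together. Over the HIP and STR libraries 43.1% to 49.6% of the members were low.

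The low side was almost always an exact 0. In 2182 of the 2241 PFC members (97.4%), 2011 of the 2055 HIP members (97.9%), and 2183 of the 2232 STR members (97.8%), every low rat was listed at 0. An exact 0 in a table of estimates can be a transcript that was not assembled in that sample as well as a transcript that was absent. Differences and gaps are given on the log2(FPKM + 0.1) scale, so against values of 0 their size is set by the 0.1 that was added, and they are neither fold changes nor bounds. The upper side was moderate in level. Its median FPKM per member had a median over members of 10.2 (PFC), 9.86 (HIP), and 9.74 (STR). The highest such median of a member was 704, 1183, and 2055 FPKM, and single rats could lie above it. A median of 26 rats stood on the upper side in each region, and the count ran over the whole range the rule allows, from 6 to 42. The median gap was 5.34 log2 units (PFC), 5.33 (HIP), and 5.26 (STR).

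In the PFC, the 3 members with the narrowest gaps were ENSRNOT00000016036 at 2.03, ENSRNOT00000011565 at 2.04, and ENSRNOT00000010824 at 2.05. Just outside were ENSRNOT00000010684 at 1.99, ENSRNOT00000029141 at 1.99, and ENSRNOT00000067674 at 1.94. Their upper medians overlapped, at up to 10.2 FPKM inside and 5.12 to 14.2 FPKM outside. With a gap of at least 3 in place of 2, 2172 of the PFC members, 2007 of the HIP members, and 2171 of the STR members remained.

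**Figure D1:**
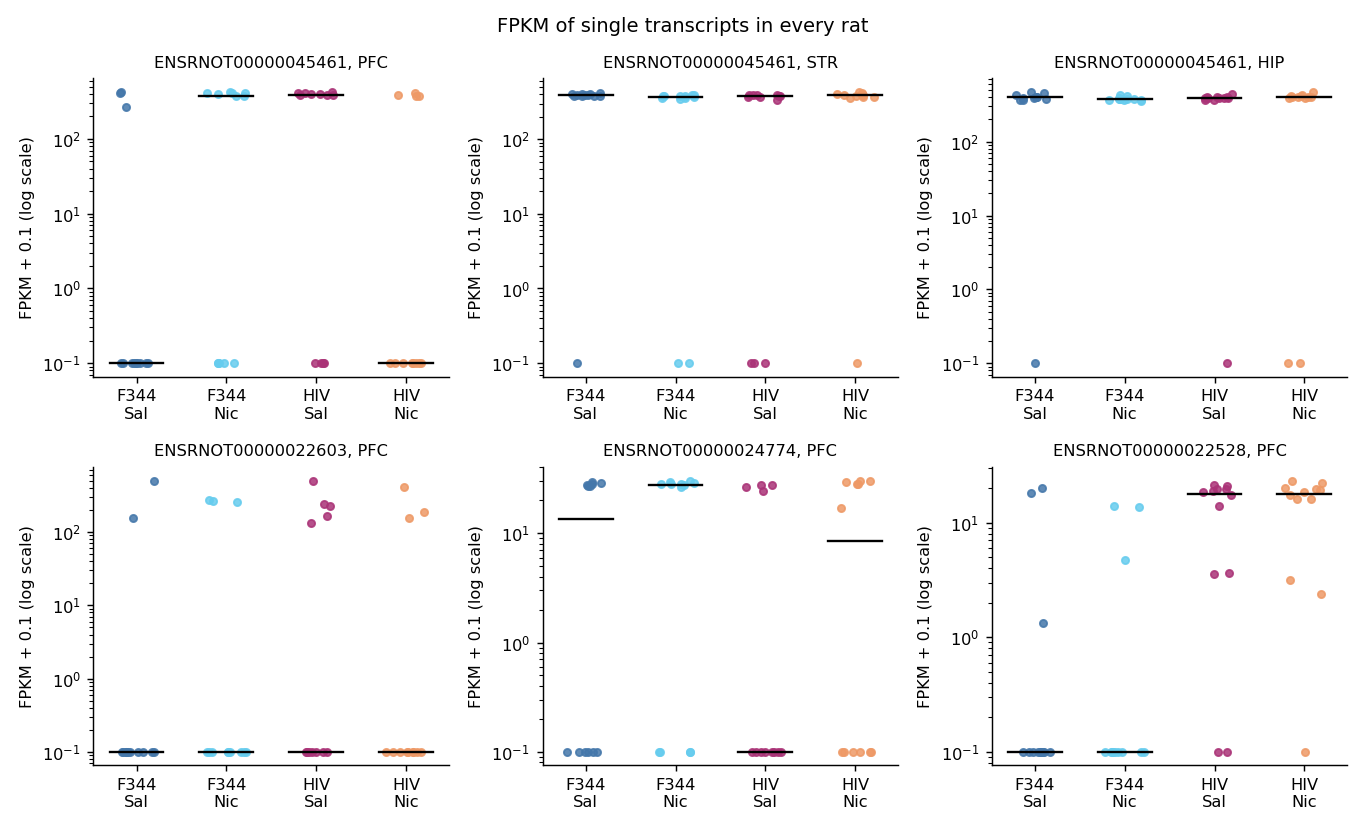
FPKM + 0.1 on a log scale (vertical axis) of 4 transcripts in every rat of the 4 groups (horizontal axis), with ENSRNOT00000045461 shown in all 3 regions and the others in the PFC. Each point is a rat and the black line is the group median. Points at the bottom are values listed at 0, where ENSRNOT00000045461 has 26 PFC, 7 STR, and 4 HIP rats, and its other rats form a narrow band in each region.

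The widest gap in the PFC, 11.4 log2 units, belonged to ENSRNOT00000045461, a transcript of 1168 bases. It was listed at 0 in 26 rats and lay between 272 and 425 FPKM in the other 22, with a median of 403 and a mean of 395 ± 32.0 (SD). In F344_Sal rats the lowest, median, and highest values were 0, 0, and 425 FPKM, with 3 rats high. In F344_Nic rats they were 0, 376, and 424 FPKM, with 7 rats high. In HIV_Sal rats they were 0, 391, and 423 FPKM, with 8 rats high. In HIV_Nic rats they were 0, 0, and 410 FPKM, with 4 rats high. High and low rats occurred in every group, and the ranges of the 4 groups overlapped fully. In the STR, 41 rats lay between 332 and 428 FPKM and 7 were at 0. In the HIP, 44 of 48 rats were high and 4 were at 0, too few for the rule. The median of the high rats was 403 FPKM in the PFC and 384 FPKM in the STR, while the number of rats at 0 differed. The other isoforms of its gene, annotated or of class j, summed to 0 in every rat of all 3 regions.

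Other members had widths of the same order. ENSRNOT00000041533 led the HIP, with 30 rats between 219 and 1481 FPKM and 18 at 0, and its gap was 11.1 log2 units. ENSRNOT00000022303 led the STR with a gap of 12.3. It was listed at 0 in 39 STR rats, and the other 9 lay between 491 and 2778 FPKM, with 4 F344_Sal, 2 F344_Nic, 1 HIV_Sal, and 2 HIV_Nic rats among them. In the PFC, ENSRNOT00000020932 showed the opposite balance, with 42 rats between 121 and 172 FPKM and 6 at 0. ENSRNOT00000066885, a transcript without an annotated sister or a class j isoform, was spread more widely on its upper side. It ran from 43.8 to 1032 FPKM in 41 PFC rats, from 98.8 to 1782 FPKM in 40 HIP rats, and from 69.2 to 1260 FPKM in 33 STR rats, and was listed at 0 in the others.

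The genes of members had more isoforms listed than those of all transcripts tested. An annotated sister, that is, another annotated transcript of the same gene, was missing for 29.0% of the members against 56.0% of the 18711 transcripts tested in the PFC. These percentages were 28.1% against 55.4% of 18835 in the HIP and 28.8% against 55.5% of 18874 in the STR. Transcripts tested were those of at least 700 bases with FPKM above 0.01 in at least 6 of 48 libraries. The median number of class j isoforms of the gene was 13 for PFC members, 12 for HIP members, and 13 for STR members, against 7 for the transcripts tested in each region. Members were also longer, with a median of 2506 bases in the PFC against 2209 for the transcripts tested. These shares are a description of the members, and the difference from the other transcripts was not tested.

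Whether the total over a gene followed the sides of its member depended on which isoforms were summed. The members themselves differed between high and low rats by medians of 6.61 to 6.67 log2 units over the 3 regions, a size set by the added 0.1 because the low side was nearly always 0. The sum of the annotated transcripts of the gene differed by medians of 5.97 to 6.02 log2 units over all members, and by at least 2 in 62.3% (PFC), 62.8% (HIP), and 61.3% (STR) of them. Applied to this sum in place of each transcript, the rule found 1595 PFC, 1453 HIP, and 1554 STR genes. For the 1591 PFC, 1477 HIP, and 1590 STR members with an annotated sister, it differed by medians of 1.45, 1.60, and 1.26 log2 units, and for 513, 484, and 547 of them by less than 0.5. For members without a sister this sum is the member itself. When the class j isoforms were added to the sum, the median difference fell to 0.09 (PFC), 0.08 (HIP), and 0.09 (STR). The gene total then differed by less than 0.5 log2 units between high and low rats in 1622 PFC members (72.4%), 1545 HIP members (75.2%), and 1639 STR members. The member made up a median of 48.2% (PFC), 45.5% (HIP), and 45.9% (STR) of this total on its upper side. The 2 sides were those of the member, which is part of each sum, so no test was made of these differences.

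**Figure D2:**
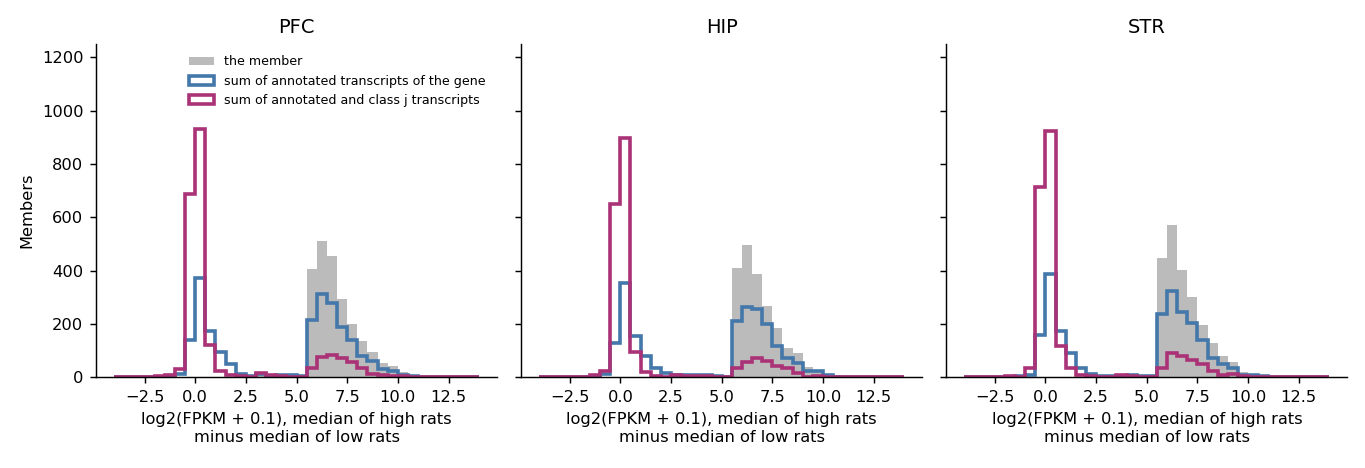
Number of members (vertical axis) by the difference in log2(FPKM + 0.1) between the median of the high rats and that of the low rats (horizontal axis), in the PFC, HIP, and STR. Gray bars are the members themselves, blue lines the sum of the annotated transcripts of the gene, and purple lines the sum of annotated and class j isoforms, which piles up near 0 with medians of 0.09, 0.08, and 0.09.

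ENSRNOT00000022603 is an example with class j isoforms. Of the 48 PFC rats, 35 were at 0 and 13 lay between 135 and 504 FPKM, with a median of 245. The gene has no annotated sister, but 17 class j isoforms were listed in the PFC. Together those isoforms had a median of 450 FPKM in the low rats and 310 FPKM in the high rats, and in 2 high rats they were themselves at 0. The gene total had a median of 450 FPKM (226 to 594) in the low rats and 552 FPKM (247 to 712) in the high rats, and the 2 ranges overlapped. This transcript was a member in every region, with 11 high rats in the HIP and 13 in the STR, where the gene totals of high and low rats overlapped as well.

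A direct exchange between annotated sisters was also seen. In each rat, the side of every transcript tested was compared with whether a sister lay above its own median, by Fisher's exact test (two-sided, Benjamini-Hochberg adjustment over all pairs, 7381 for PFC, 7602 for HIP, and 7675 for STR). Among PFC members with a sister that could be tested, 312 of 1187 (26.3%) had a sister moving the opposite way at an adjusted p under 0.05, against 18.7% of all transcripts with a sister. In the HIP there were 298 of 1109 (26.9%), against 18.2%, and in the STR 286 of 1223 (23.4%), against 17.1%. Sisters that moved the same way numbered 112 (PFC), 108 (HIP), and 115 (STR), or 9.44%, 9.74%, and 9.40%, against 13.3%, 13.4%, and 12.7% of all transcripts with a sister. The shares were not matched for the number of sisters, and whether they differ between members and other transcripts was not tested.

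The count of opposite moves depended on which isoforms were allowed as partners. With single sisters of any class it was 709 of 2083 (34.0%) for PFC, 687 of 1931 (35.6%) for HIP, and 673 of 2098 (32.1%) for STR members, against 24.9%, 25.4%, and 23% of all transcripts with such a sister. Against the sum of all other annotated and class j isoforms of the gene, 1310 of 2174 PFC members (60.3%), 1289 of 1989 HIP members (64.8%), and 1302 of 2162 STR members (60.2%) moved opposite to the rest of the gene. Among all transcripts with other isoforms, 50% (PFC), 51.4% (HIP), and 47.9% (STR) did so. The rest of the gene moved the same way for 100 (4.60%), 83 (4.17%), and 82 (3.79%) members, against 4.56%, 4.68%, and 4.64%. Isoforms of a gene share fragments in the estimate, so the share among all transcripts is the level against which the members are read.

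The clearest pair was ENSRNOT00000024774 and ENSRNOT00000065128 of gene ENSRNOG00000018145 in the PFC. The first was listed at 0 in 24 rats and lay between 16.9 and 30.2 FPKM in the other 24. The second was at 0 in exactly those 24 rats in which the first was high, and lay between 7.79 and 31.8 FPKM in the rest (Fisher's exact test, adjusted p = 2.28e-11). The first was high in 6 F344_Sal, 8 F344_Nic, 4 HIV_Sal, and 6 HIV_Nic rats, so both isoforms occurred in every group. The total of annotated and class j isoforms of the gene was 28.1 FPKM at the median in the rats high for ENSRNOT00000024774 and 28.8 FPKM in those low for it. Both were members in the HIP and STR too, without the exact exchange: in the HIP, 22 rats were high for ENSRNOT00000024774 and 33 for ENSRNOT00000065128.

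In the HIP a like pair was ENSRNOT00000055237 and ENSRNOT00000055238 of gene ENSRNOG00000036814. The former lay between 48.6 and 157 FPKM in 22 rats and at 0 in 26, and the latter between 32.0 and 170 FPKM in 28 rats and at 0 in 20. Only 2 rats had both isoforms above 0, and the adjusted p from Fisher's exact test was 1.26e-09 with ENSRNOT00000055238 as the member and 1.56e-09 with ENSRNOT00000055237. Pairs of members with exactly opposite sides in all 48 rats were found in 3 genes of the PFC, 1 of the HIP, and 2 of the STR, out of 340, 325, and 350 genes with at least 2 members.

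**Figure D3:**
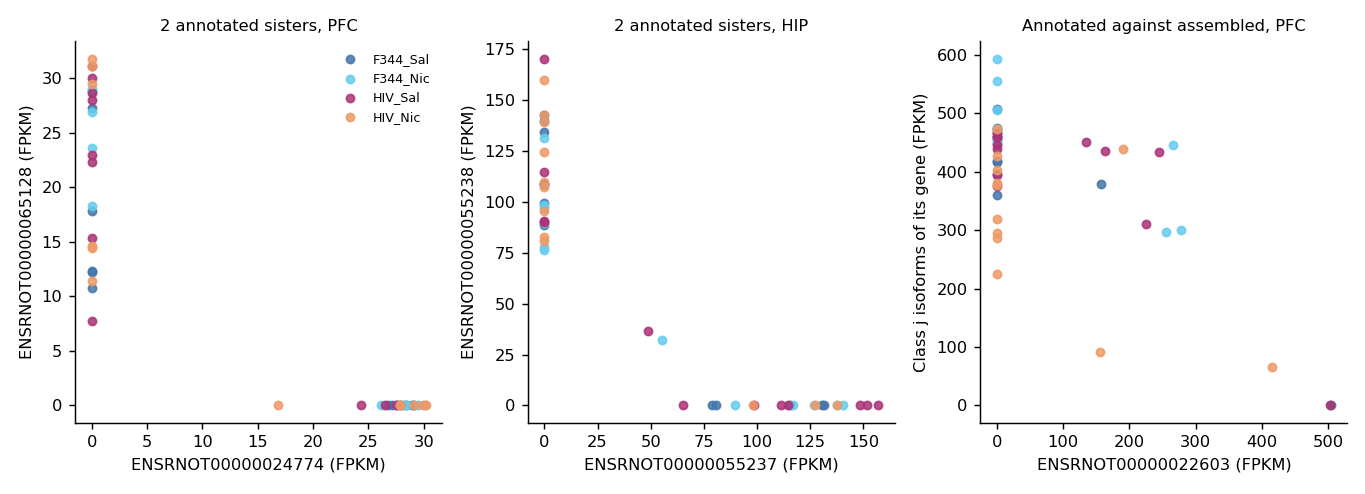
FPKM of a transcript (horizontal axis) against FPKM of a partner (vertical axis), with 1 point per rat colored by group. The first 2 panels show annotated sisters in the PFC and HIP, where nearly all rats lie on an axis, and the last shows ENSRNOT00000022603 in the PFC against the summed class j isoforms of its gene, whose highest values belong to rats at 0 for the annotated transcript.

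For a smaller number of members the gene total did follow the sides. Neither an annotated sister nor a class j isoform existed for 67 (PFC), 66 (HIP), and 70 (STR) members, whose gene total is the member itself and follows its sides by construction. ENSRNOT00000045461 and ENSRNOT00000066885, described above, are of this kind. Of the PFC members with other isoforms, 360 (16.6%) kept a difference of at least 2 log2 units in the gene total with class j isoforms, and in 129 of these the totals of high and low rats did not overlap. The corresponding numbers were 294 (14.8%) and 107 for HIP members and 323 (14.9%) and 126 for STR members. When all isoforms at the same assembled locus were summed in place of those of the gene, 278 of the 360 PFC, 239 of the 294 HIP, and 260 of the 323 STR members remained at 2 or more. Cells marked as missing for a sample, which are not the same as a 0, were present for 348 PFC, 283 HIP, and 331 STR members and were left out of the sides.

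Whether a rat was high or low could follow its strain or its treatment. Of the PFC members, 92 (4.11%) had sides related to strain and 110 (4.91%) to drug at an unadjusted p under 0.05 in Fisher's exact test, against 5.12% and 5.19% of all transcripts tested. In the HIP there were 53 (2.58%) for strain and 55 (2.68%) for drug, against 3.06% and 2.86%. In the STR there were 83 (3.72%) and 74 (3.32%), against 4.5% and 3.49%. The members' shares lay at or below the background in each of the 6 comparisons. After Benjamini-Hochberg adjustment over all transcripts tested, 0 members passed 0.05 for strain or drug in any region. Of all transcripts tested, 2 PFC (0.0107%), 4 HIP (0.0212%), and 5 STR transcripts (0.0265%) passed for strain and 0 (0%) for drug in each region, so a count of 0 members is near the background. The smallest adjusted p of a member was 0.0888 for strain and 0.0701 for drug in the PFC, 1 for both in the HIP, and 0.209 and 1 in the STR.

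The same members were also tested by limma on log2(FPKM + 0.1), which uses the level as well as the side and assumes values spread around a group mean, unlike the values of these transcripts. In the PFC limma called 18 members for strain (14 higher and 4 lower in HIV-1Tg rats) and 17 for drug (4 higher and 13 lower with nicotine) at an adjusted p under 0.05, or 0.803% and 0.759% of the members, against 1.09% and 1.12% of all transcripts. At an unadjusted p under 0.05 there were 175 (7.81%) and 197 (8.79%), against 7.86% and 7.71%. A set of 10 members low only in F344_Nic rats, described below, is among both the 14 and the 13. For that set these directions reflect the low F344_Nic rats. In the HIP limma called 0 members for strain and 0 for drug, against 0.0318% and 0%. At an unadjusted p under 0.05 there were 106 (5.16%) and 116 (5.64%), against 5.14% and 5.17%. In the STR it called 2 of 2231 members for strain (both lower in HIV-1Tg rats), against 0.0529%, and 0 for drug, against 0.0106%. At an unadjusted p under 0.05 there were 170 (7.62%) and 153 (6.86%), against 7.72% and 6.53%. The interaction of strain and drug was called for 19 members (0.848%) in the PFC, against 1.12% of all transcripts, for 0 in the HIP, against 0%, and for 1 in the STR, against 0.00529%. At an unadjusted p under 0.05, it took in 199 PFC members (8.88%), 149 HIP members (7.25%), and 114 STR members (5.11%), against 7.9%, 6.73%, and 4.42% of all transcripts. The remaining STR member could not be fitted in every group because of missing cells. Without the 10 PFC libraries that stood apart, with 2 F344_Nic rats left in that group, limma called 0 members for strain, 2 for drug, and 2 for the interaction in the PFC, against 0.124%, 0.113%, and 0.151% of the 18581 transcripts in that fit. For members whose sides were those libraries, this loss follows from leaving them out.

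In the PFC, 10 members called by limma for strain, drug, and the interaction formed a set that was low only in F344_Nic rats. These 10 were chosen after their values were seen. Their sides were alike: all 36 rats of the other groups and F344_Nic rats 4 and 8 were high. The low rats were the other 10 F344_Nic rats, except that 1 of these was missing for ENSRNOT00000039721. These 10 rats are those whose libraries stood apart in coverage of short transcripts. Among all 18705 transcripts with values in both sets of libraries, the 10 libraries lay wholly below the other 38 in 129 (0.69%), with a median length of 987 bases, and wholly above them in 11. All 10 members of the set belong to the 129, which follows from how the set was formed. None of the 10 has an annotated sister.

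ENSRNOT00000063820 was the most abundant of the set. In F344_Sal rats its lowest, median, and highest values were 82.8, 90.5, and 108 FPKM. For F344_Nic they were 3.81, 4.66, and 88.3 FPKM. For HIV_Sal they were 79.5, 91.9, and 96.0 FPKM, and for HIV_Nic 24.2, 86.4, and 99.0 FPKM. The 10 low F344_Nic rats lay between 3.81 and 4.88 FPKM, below every other rat. The nicotine effect in HIV-1Tg rats minus that in F344 rats was 3.40 ± 0.50 log2 units (SE, limma interaction, adjusted p = 1.53e-05). In the HIP and STR the medians of F344_Sal and F344_Nic rats were 125 and 126 FPKM and 103 and 108 FPKM, and no F344_Nic rat was low.

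ENSRNOT00000043224 behaved alike at a lower level. Its F344_Sal rats ranged from 55.8 to 79.1 FPKM with a median of 61.9, its HIV_Sal rats from 59.0 to 69.6 FPKM with a median of 65.0, and its HIV_Nic rats from 58.2 to 166 FPKM with a median of 62.0. The 10 low F344_Nic rats were tightly grouped at 7.08 to 7.89 FPKM, and the ratio of the upper to the lower median was 3.09 log2 units. The interaction was 2.70 ± 0.38 log2 units (SE, limma, adjusted p = 7.15e-06). ENSRNOT00000016081, with a median of 13.7 FPKM in F344_Sal rats, was listed at 0 in all 10 low F344_Nic rats. The part of the library property in these values was not tested.

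**Figure D4:**
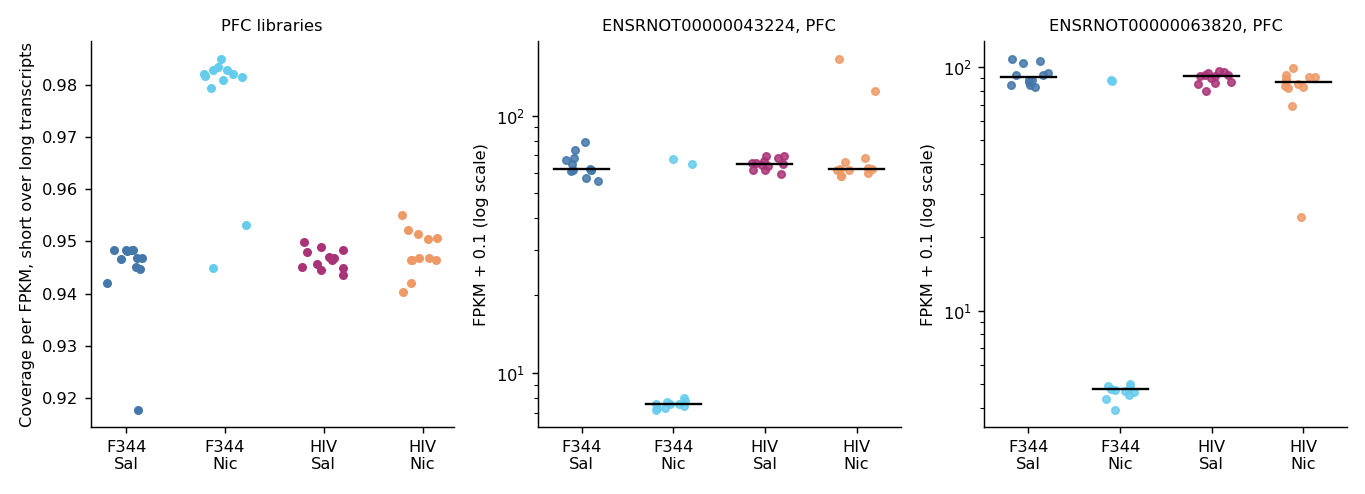
Left: ratio of coverage to FPKM in short over long transcripts (vertical axis) for each PFC library of the 4 groups. Middle and right: FPKM + 0.1 on a log scale for ENSRNOT00000043224 and ENSRNOT00000063820, with 1 point per rat and black lines at group medians. The 10 F344_Nic libraries with ratios of 0.980 to 0.985 are the 10 low rats of both transcripts.

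ENSRNOT00000017944 had the opposite pattern. It was high in those 10 F344_Nic rats, between 8.59 and 11.1 FPKM, and at 0 in F344_Nic rats 4 and 8 and in all 24 HIV-1Tg rats. Of the F344_Sal rats, 8 were at 0, 3 were missing, and rat 10 was high at 8.12 FPKM. The library of F344_Sal rat 10 had the lowest ratio of short to long transcripts in the PFC, 0.918. Its sides did not pass the threshold for strain (adjusted p = 0.0898, Fisher's exact test), while limma gave a strain difference of −3.11 ± 0.48 log2 units (SE, adjusted p = 5.34e-05) and an interaction of −4.80 ± 0.97 log2 units (SE, adjusted p = 0.00192). Without the 10 libraries, which removes all of its high rats but 1, these were −0.35 ± 0.46 (adjusted p = 0.999) and 0.71 ± 0.93 (adjusted p = 0.974). ENSRNOT00000017944 passed the rule only through those 10 libraries and was chosen after its values were seen. Its limma values are therefore a description and no independent support for a strain or nicotine difference. The gene total with class j isoforms differed by 0.24 log2 units between high and low rats.

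Leaving that set aside, ENSRNOT00000022528 came closest to following strain in the PFC. In F344_Sal rats its lowest, median, and highest values were 0, 0, and 20.1 FPKM, with 3 of 12 rats high. In F344_Nic rats they were 0, 0, and 13.8 FPKM, again with 3 high. In HIV_Sal rats they were 0, 17.8, and 21.1 FPKM, with 10 high, and in HIV_Nic rats 0, 17.8, and 23.1 FPKM, with 11 high. The groups overlapped, since each held rats at 0 and rats above. Fisher's exact test over the 48 rats gave an unadjusted p of 2.55e-05 and an adjusted p of 0.0888, and limma a strain difference of 4.57 ± 0.80 log2 units (SE, adjusted p = 2.77e-04). The strain difference was 3.62 ± 1.20 log2 units (adjusted p = 0.508, limma) without the 10 libraries.

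Its annotated sister ENSRNOT00000065973 had PFC medians of 22.3 and 21.5 FPKM in F344 rats given saline and nicotine and of 10.7 and 8.54 FPKM in the HIV-1Tg rats. It did not pass the threshold for strain (−1.12 ± 0.61 log2 units, SE, limma, adjusted p = 0.699). Over the 48 rats it moved opposite to ENSRNOT00000022528 (adjusted p = 0.0169, Fisher's exact test). The gene total was about level, with medians of 44.2, 44.9, 40.0, and 40.7 FPKM in the same order. In the STR ENSRNOT00000022528 was high in 8, 9, 9, and 8 rats of the 4 groups, and in the HIP in 5, 6, 10, and 8, so the PFC lean toward HIV-1Tg rats was not seen in the STR. Whether it differed between regions was not tested.

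ENSRNOT00000064079 leaned the other way, toward F344 rats. In the STR it was high in 10 F344_Sal, 7 F344_Nic, 0 HIV_Sal, and 3 HIV_Nic rats, with F344_Sal values of 0, 20.1, and 34.0 FPKM at the lowest, median, and highest, and every HIV_Sal rat at 0. The limma strain difference was −4.66 ± 0.83 log2 units (SE, adjusted p = 0.00281). In the PFC its high rats numbered 8, 9, 5, and 1, with a strain difference of −3.84 ± 0.94 log2 units (SE, limma, adjusted p = 0.0205; without the 10 libraries −4.85 ± 1.35, adjusted p = 0.237), and in the HIP 2, 7, 0, and 0. The other STR member called for strain by limma was ENSRNOT00000065589, at −2.88 ± 0.51 log2 units (SE, adjusted p = 0.00281).

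Many transcripts were members in more than 1 region. Members were 12.0% (PFC), 10.9% (HIP), and 11.8% (STR) of all transcripts tested in a region. Of the PFC members, 1478 (65.95%) were also HIP members and 1509 (67.3%) STR members. They made up 71.9% of the HIP members and 67.6% of the STR members, and the 1484 shared by HIP and STR were 72.2% and 66.5% of each. These overlaps are a description and were not tested. The share of rats on the upper side was also alike: over the 1478 members of PFC and HIP, Spearman's rho was 0.72 and Pearson's r 0.72, over the 1509 of PFC and STR both were 0.72, and over the 1484 of HIP and STR both were 0.78. These correlations are across transcripts, which share annotation, length, and gene structure between regions and are not independent replicates, and they are given without a test.

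Sample numbers on each side were then compared between regions. For each transcript tested in 2 regions, the sides were compared over samples with the same group and number. With Fisher's exact test and adjustment over all transcripts tested in both regions, 0 members passed 0.05 in any pair of regions, against 3, 1, and 4 of all 17691, 17701, and 17861 transcripts for PFC and HIP, PFC and STR, and HIP and STR. At an unadjusted p under 0.05 the sides were related, in the same or the opposite direction, in 81 (3.31%) of 2445 transcripts that were members in the PFC or HIP, 69 (2.73%) of 2527 in the PFC or STR, and 69 (2.81%) of 2459 in the HIP or STR, against 2.97%, 2.95%, and 3.15% of all transcripts. Of the members of both PFC and HIP, 33 (2.23%) leaned to the same side and 14 (0.947%) to opposite sides at that unadjusted p, against 2.01% and 0.961% of all transcripts. For PFC and STR these were 21 (1.39%) and 23 (1.52%), against 1.85% and 1.1%, and for HIP and STR 21 (1.42%) and 24 (1.62%), against 1.66% and 1.49%. Whether these shares differ from those of all transcripts was not tested. A median of 58.3% of sample numbers were on the same side in each pair of regions, and the shares of high rats alone give medians of 56.2%, 56.1%, and 56.9%. Since the labels do not tie the samples of different regions to a rat, this test compares numbers and not animals.

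**Figure D5:**
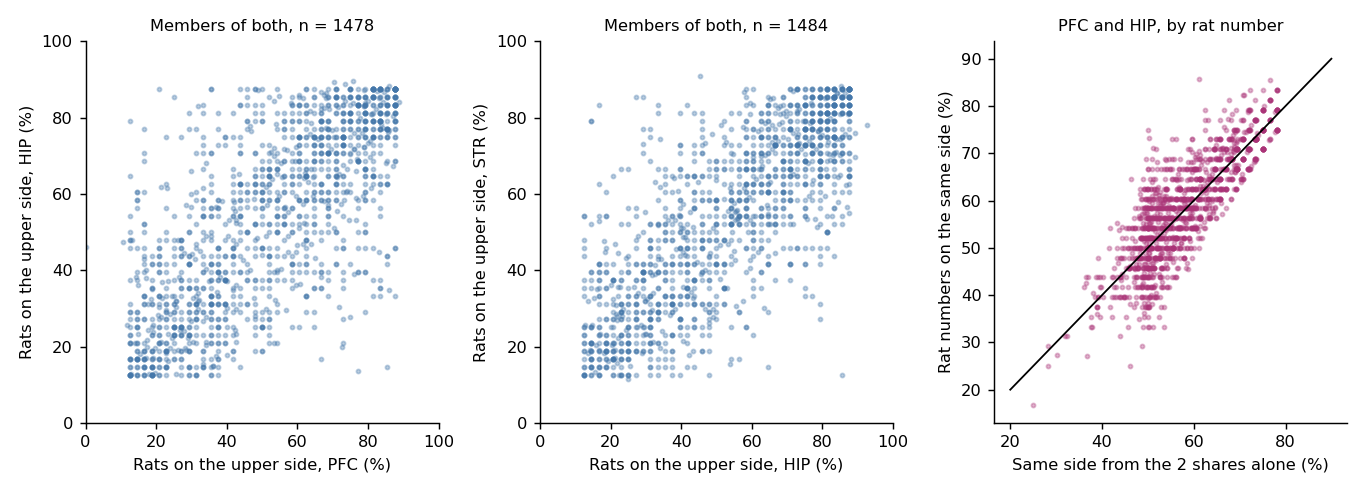
First 2 panels: percent of rats on the upper side in a region (horizontal axis) against that in another (vertical axis) for members of both, with 1 point per transcript. Last panel: percent of sample numbers on the same side in PFC and HIP (vertical axis) against the percent that the 2 shares alone give (horizontal axis), with the line of equality, around which the points scatter with medians of 58.3% and 56.2%.

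In 36 members over the 3 regions the low side had a median above 0, 15 (PFC), 12 (HIP), and 9 (STR). Of the 15 in the PFC, 9 belong to the set low in F344_Nic rats described above. In 19 of the other 27, the upper median was 2.8 to 3.6 log2 units above the lower. ENSRNOT00000039728 was an example in the HIP and STR. In the HIP, 11 rats lay between 6.15 and 8.04 FPKM and 34 between 43.8 and 145 FPKM, with no rat in between and 3 missing. In the STR, 7 rats lay between 5.16 and 8.47 FPKM and 39 between 39.6 and 108 FPKM. Rats of every group were found on both sides in both regions. In the PFC the same 2 levels appeared, with 9 rats between 6.39 and 8.55 FPKM and 36 between 25.1 and 106 FPKM, but the gap of 1.54 log2 units was below the limit.

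ENSRNOT00000034166 had the same shape at a higher level. In the HIP, 6 rats lay between 4.24 and 8.79 FPKM and 42 between 45.7 and 290 FPKM. In the STR, 8 rats lay between 4.66 and 13.5 FPKM and 40 between 60.5 and 205 FPKM. The low rats were spread over the groups, with at least 1 in each group in both regions. In the PFC its values ran without a gap of the required width, from 0 to 136 FPKM. These 2 transcripts were chosen after their values were seen.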

How the data were processed

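RNA of 144 samples was sequenced, 12 rats in each of 4 groups and 3 brain regions. Per the submitters' processing notes, reads were aligned with TopHat and Bowtie 1.04. Per the study's methods, the rat genome build was Rn4, and Cufflinks assembled and quantified transcripts. The authors deposited tables in the format of Cuffcompare, 1 per strain and region, whose packed cells hold FPKM, coverage, and length (FPKM is already normalized to length and mapped fragments). Read totals are not used here, and the depth of a library is known only through the ratio of coverage to FPKM. Cells holding several assembled pieces were summed, 6107 PFC, 6172 HIP, and 6096 STR cells. Samples were grouped by their labels.

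From these FPKM values, sides were set at the widest gap of log2(FPKM + 0.1). For every transcript of at least 700 bases with FPKM above 0.01 in at least 6 libraries, the sides were tested against strain, drug, sister isoforms, and sample number in another region by two-sided Fisher's exact tests, with Benjamini-Hochberg adjustment over all transcripts tested, or over all pairs for sisters. Levels were tested with limma 3.58.1 (R 4.3.3) over all 4 groups of a region, with strain, drug, and their interaction, and adjusted p under 0.05 was called. Python 3.11.15, numpy 2.4.6, pandas 2.3.3, scipy 1.17.1, and matplotlib 3.10.9 were used. The scripts were first checked on simulated data with known answers, which enter no result. Replicate numbers did not pair the samples, so no block was used in the main fits.

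The members and the transcripts named were chosen with earlier results of these data known. The rule named in each region the 8 members with the widest gaps, the 4 with the strongest opposite sister, the 3 on each side of the gap limit, members past an adjusted threshold of a side test, and members of all 3 regions. It names many more transcripts than are printed, since identifiers carry no gene names. Members named for a relation to strain or drug, the set low in F344_Nic rats, and those with a low side above 0 were chosen after their values were seen. Alternatives were pseudocount, gap, side size, upper minimum, length, scaling, missing cells, filters, single libraries left out, and, added after seeing the data, the libraries that stood apart.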

Additional observations from a re-analysis of the deposited data

Results flagged for a closer look

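In the PFC, the nicotine effect differed between strains for 19 members (0.848%) by the limma interaction, which tests that difference (adjusted p under 0.05), against 1.12% of all transcripts. Given as the nicotine effect in HIV-1Tg rats minus that in F344 rats, it was −4.80 log2 units for ENSRNOT00000017944, 2.70 for ENSRNOT00000043224, 3.40 for ENSRNOT00000063820, and 5.73 for ENSRNOT00000016081. The low rats of ENSRNOT00000017944 and ENSRNOT00000016081 were listed at 0, so the size of their values is set by the 0.1 added to FPKM and is not to be ranked with the others. The sides of these 4 transcripts in F344_Nic rats were those of the 10 libraries that stood apart in coverage of short transcripts. The part of that property was not tested. These 4 do not stand for all 19, since others called are outside the set low in F344_Nic rats. ENSRNOT00000061303 was at −11.8 ± 2.2 log2 units (SE, limma, adjusted p = 6.0e-04). Its nicotine estimates were 5.52 in F344 and −6.24 in HIV-1Tg rats. Its low side had a median of 0, so these sizes too are set by the added 0.1. In the STR, 1 member was called, against 0.00529% of all transcripts, ENSRNOT00000066129, at 7.34 ± 1.32 log2 units (SE, limma, adjusted p = 0.0256). Groups held 12 rats, so single rats were not screened as outliers.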

How the results depend on the processing

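In the PFC, HIP, and STR, members numbered 1442, 1338, and 1404 with a pseudocount of 1, 5312, 5385, and 5430 with no minimum of the upper median, and 1158, 1014, and 1080 with an upper median of at least 10. With at least 10 rats on each side 1486 PFC members were left. These settings make the rule looser or stricter by construction. Opposite sisters numbered 709, 687, and 673 with sisters of any class, and 1310, 1289, and 1302 members moved opposite to the sum of the other isoforms (added after seeing the data). Leaving out the 10 F344_Nic libraries, also added later, left 0 PFC members called by limma for strain and 2 for drug, with fewer samples in the fit. Of the other settings, 104 planned and 15 added values stayed within 1.5 times the main count. These are counts and hold no direction. Leaving out each library in turn gave 2186 to 2232 members in the PFC, 2016 to 2045 in the HIP, and 2194 to 2221 in the STR. Limma then called 15 to 21 PFC members for strain and 15 to 23 for drug, 2 STR members for strain, 0 STR members for drug, and 0 HIP members for either. The interaction was not refitted in this way.

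With the replicate number as a block, limma called 16 PFC, 0 HIP, and 2 STR members for strain and 15, 0, and 0 for drug. Samples share only a number: 0 of 72 same-numbered pairs correlated above 0.1 in any region, and 3, 4, and 2 of 48 libraries correlated best with their own number. An exact 0 limits the results for all but the few members whose low rats were above 0. An isoform that was not assembled and an isoform that was absent give the same value.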
